A study of Mus musculus with 8 samples.

Results

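Base excision repair genes were examined in mouse primordial germ cells, from which sperm and eggs descend, with and without the arginine methyltransferase gene Prmt5. The set held 9 named genes of the pathway (Lig3, Xrcc1, Parp1, Polb, Apex1, Ung, Tdg, Mbd4 and Smug1), taken from 21444 genes with at least 1 count, and all 9 passed the filter on low counts that left 10990 genes. RNA sequencing covered 8 libraries of germ cells sorted at embryonic day 11.5 for green fluorescent protein under a distal piece of the Oct4 promoter. The 4 Prmt5 KO libraries had Cre recombinase under Blimp1 with both copies of Prmt5 floxed, and the 4 Control libraries had the same Cre with 1 floxed and 1 wild-type copy. All embryos were on a mixed background of C57BL/6 and 129, so Cre, the reporter and at least 1 floxed copy were shared by both groups. Cre was driven by Blimp1, a gene also active in other embryonic tissues. Whether each library had its own embryo or litter is not stated, so every p-value measures a spread among 8 libraries that can be technical in part.

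Base excision repair removes single damaged or altered bases. A DNA glycosylase cuts out the base, an endonuclease opens the strand at the empty site, a polymerase fills the gap, and a ligase held by the scaffold protein XRCC1 seals the nick. Germ cells at this stage pass through a wave of global DNA demethylation, in which glycosylase-driven repair has been discussed as one route to remove modified cytosine, and poly(ADP-ribose) polymerase marks the strand breaks that repair leaves behind.

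None of the 9 genes changed at an adjusted p of 0.05, a threshold passed by 3 of 10990 genes (0.0273%, and 0.0091% for lower in Prmt5 KO) in edgeR's quasi-likelihood test. Lig3, the gene of DNA ligase III, came nearest. Its level was 53.1 ± 12.5 CPM (counts per 1000000 gene counts, on TMM-scaled library sizes) in Prmt5 KO cells and 117 ± 18.3 CPM in Control cells (SD, n = 4 each). The other 8 genes had overlapping ranges between the groups. Of the 9, 1 had a log2 fold change (Prmt5 KO over Control) above 0 and 8 below 0, with a median of -0.28. Of all genes tested 5789 were above 0 and 5201 below, with a median of 0.03. Among the 8, Xrcc1 and Apex1 lay close to 0 and changed sign in some alternative fits. At an unadjusted p under 0.05 stood 1 of the 9 genes (11.1%), against 8.15% of all genes tested in either direction and 3.69% lower in Prmt5 KO. The groups did not overlap for 1 of the 9 genes, lower in Prmt5 KO, against 4.9% of all genes tested in either direction and 2.27% lower in Prmt5 KO. Because these are bulk samples, fewer cells of a type and less RNA per cell cannot be told apart.

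The gene counts totalled 4318972 to 6549504 in Prmt5 KO libraries and 1811428 to 5844441 in Control libraries. Prmt5 itself fell to 35.5 ± 6.49 CPM in Prmt5 KO cells, against 138 ± 40.6 CPM in Control cells (SD, n = 4 each), with a log2 fold change of -1.95 ± 0.27 (standard error) and an edgeR adjusted p = 0.0389. It stayed lower in Prmt5 KO in all 19 alternative fits, but 12 of them missed the threshold, among them each fit that left out 1 library other than Control 1 (edgeR adjusted p of 0.0578 to 0.234). The 12 germ cell markers listed all had counts in both groups, with summed levels of 3055 to 3713 CPM in Prmt5 KO and 3115 to 3667 CPM in Control. Prmt5 KO 1 and Prmt5 KO 4 stood apart from the rest in multidimensional scaling. The summed level of 15 markers of somatic gonad and mesonephros was 783 CPM in Prmt5 KO 1, 192 to 223 CPM in the other Prmt5 KO libraries and 149 to 253 CPM in Control. Mfge8, the most abundant of them, was at 167 ± 10.8 CPM in Prmt5 KO and 145 ± 27.2 CPM in Control (SD, n = 4 each). The excess in Prmt5 KO 1 lay mostly on other markers, named here after their values were seen. Acta2 was at 208 CPM there, 2.71 to 5.95 CPM in the other Prmt5 KO libraries and 3.72 to 7.13 CPM in Control. Col3a1 was at 115 CPM in Prmt5 KO 1, 2.13 to 4.98 CPM in the other Prmt5 KO libraries and 2.46 to 9.87 CPM in Control. Nr5a1, a marker of gonadal somatic cells, was at 14.9 CPM in Prmt5 KO 1 and at most 0.549 CPM in every other library. The 7 endothelial markers summed to 296 to 395 CPM in Prmt5 KO and 279 to 360.4 CPM in Control, most of it on Pecam1, which germ cells also express. Within that list Tek was at 72.4, 12.2, 53.7 and 71.0 CPM in Prmt5 KO 1 to 4 and at 28.9, 4.46, 7.68 and 8.09 CPM in Control 1 to 4 (log2 fold change 2.05, edgeR adjusted p = 0.410), and Egfl7 averaged 5.43 CPM in Prmt5 KO and 12.4 CPM in Control (log2 fold change -1.18, edgeR adjusted p = 0.684). The part of these markers in the results on the 9 genes was not tested, other than by leaving out libraries. The 12 markers of blood and macrophages summed to 7.48 to 39.9 CPM in Prmt5 KO and 21.3 to 44.0 CPM in Control, and Csf1r led them, although exons of Hmgxb3 cover 18.6% of its transcript on the opposite strand, with 7 of the 12 at 0 in every Prmt5 KO library and 6 in every Control library.

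The 4 glycosylases of the set remove uracil or thymine from DNA. On GRCm38, Ung (ENSMUSG00000029591) lies on chromosome 5 from 114130386 to 114139323, Tdg (ENSMUSG00000034674) on chromosome 10 from 82629828 to 82650799, Mbd4 (ENSMUSG00000030322) on chromosome 6 from 115840697 to 115853371 and Smug1 (ENSMUSG00000036061) on chromosome 15 from 103153290 to 103167092. Ung, the main uracil glycosylase of dividing cells, was at 361, 330.4, 348 and 467 CPM in Prmt5 KO 1 to 4 and at 314, 348, 346 and 318 CPM in Control 1 to 4. Its mean was 376 ± 61.4 CPM in Prmt5 KO and 331 ± 17.9 CPM in Control (SD, n = 4 each), and Prmt5 KO 4 carried the high end while the other 3 lay near the Control range. The log2 fold change of Ung was 0.18 with a standard error of 0.14 (edgeR adjusted p = 0.790). Without Prmt5 KO 4 the log2 fold change was 0.07. Its 5 transcripts with counts include 2 long forms, Ung-201 and Ung-202, with nearly the same reads, at 113.6% and 114% of their Control means in Prmt5 KO. Ung overlapped no exon of another gene.

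Tdg, the glycosylase that excises thymine from mismatches and the oxidised cytosine bases made by TET enzymes, was at 7.26, 17.8, 19.0 and 25.4 CPM in Prmt5 KO 1 to 4 and at 17.2, 24.6, 14.8 and 27.4 CPM in Control 1 to 4. The lowest value was in Prmt5 KO 1, and the other 3 Prmt5 KO libraries lay within the Control range. The mean of Tdg was 17.4 ± 7.53 CPM in Prmt5 KO and 21.01 ± 5.96 CPM in Control (SD, n = 4 each; log2 fold change -0.28 with a standard error of 0.47, edgeR's adjusted p = 0.939). Tdg's log2 fold change was -0.02 without Prmt5 KO 1 and -0.52 without Prmt5 KO 4, -0.12 without Control 4 and -0.08 with summed transcripts. A single processed pseudogene named for it, Tdg-ps, held 9 counts over the 8 libraries. Exons of Glt8d2, on the opposite strand, cover 10.5% of the Tdg transcript used. Glt8d2 had 19 counts in Control 1 and at most 1 in any other library. With Tdg-201, which is free of this overlap, the log2 fold change was -0.25, in a fit chosen after seeing the data.

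Mbd4, a glycosylase with a methyl-CpG binding domain that acts on thymine mispaired at methylated sites, was the scarcest of the 9, with 10 to 102 counts in a library. Its level was 12.5, 7.17, 9.08 and 2.49 CPM in Prmt5 KO 1 to 4 and 17.2, 5.80, 11.5 and 11.4 CPM in Control 1 to 4. Only Prmt5 KO 4 lay below every Control library. The mean of Mbd4 was 7.81 ± 4.17 CPM in Prmt5 KO and 11.5 ± 4.67 CPM in Control (SD, n = 4 each; log2 fold change -0.56 with a standard error of 0.63, edgeR's adjusted p = 0.869). For Mbd4 the log2 fold change was -0.27 without Prmt5 KO 4, -0.88 without Prmt5 KO 1 and -0.29 without Control 1. With summed transcripts it was -0.92, although summing can count a read more than once. Smug1, a uracil glycosylase that also removes 5-hydroxymethyluracil, was at 10.5, 19.4, 17.6 and 3.99 CPM in Prmt5 KO 1 to 4 and at 11.5, 11.2, 22.5 and 30.8 CPM in Control 1 to 4. The 2 lowest values were in Prmt5 KO libraries and the 2 highest in Control libraries. The mean of Smug1 was 12.8 ± 7.05 CPM in Prmt5 KO and 19.0 ± 9.47 CPM in Control (SD, n = 4 each; log2 fold change -0.56 with a standard error of 0.58, edgeR's adjusted p = 0.847). For Smug1 the log2 fold change was -0.27 without Prmt5 KO 4, -0.22 without Control 4 and -0.04 without Prmt5 KO 1 and 4. Tdg, Mbd4 and Smug1 added up to 30.2 to 45.7 CPM in Prmt5 KO libraries and 41.5 to 69.7 CPM in Control libraries.

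**Figure D1:**
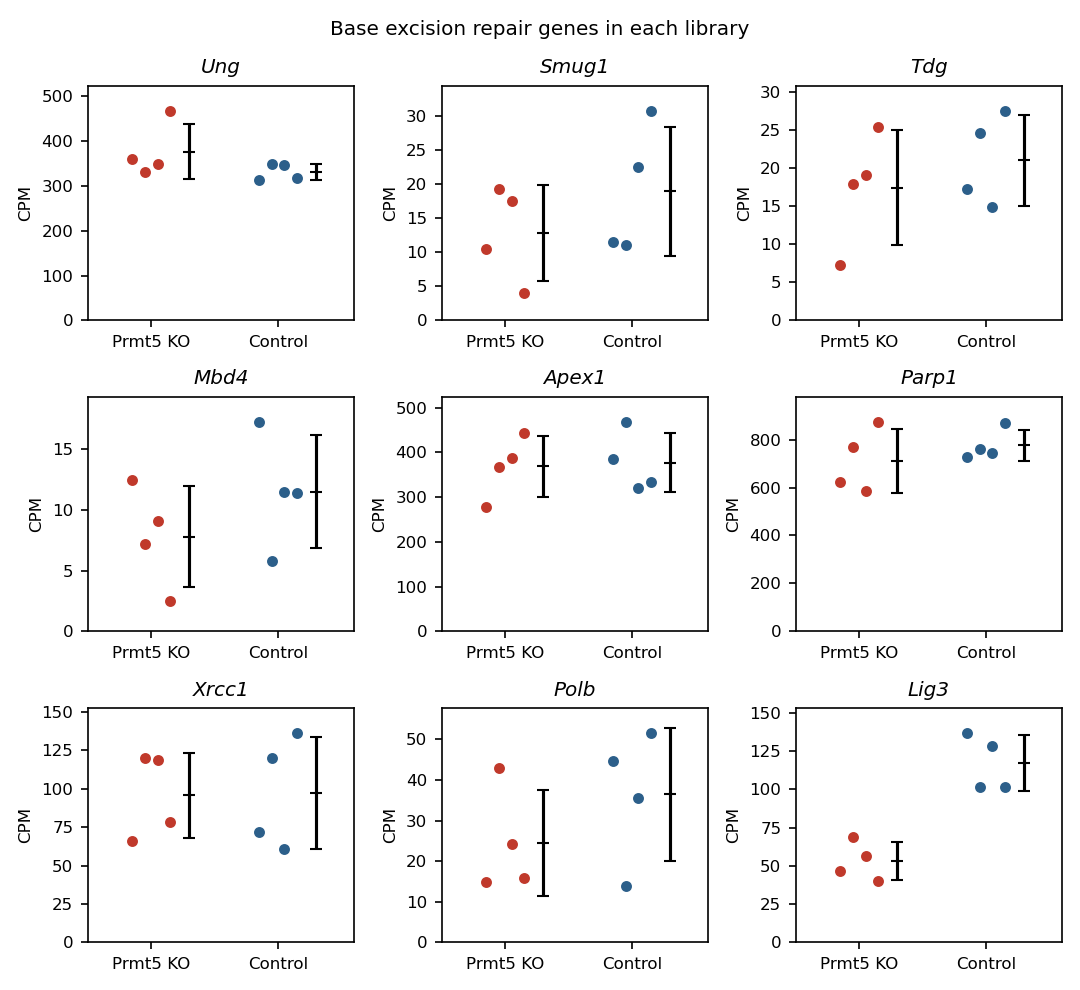
CPM (scaled counts, vertical axis from 0) of the 9 base excision repair genes in each Prmt5 KO library (red) and each Control library (blue), with replicates 1 to 4 from left to right and the mean ± SD in black. For Lig3 the Prmt5 KO libraries lie between 40.1 and 68.8 CPM, all below the Control libraries, and for the other 8 genes the groups overlap.

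The next 4 genes lie on GRCm38 at chromosome 14 from 50924968 to 50927139 (Apex1, ENSMUSG00000035960), chromosome 1 from 180568924 to 180601254 (Parp1, ENSMUSG00000026496), chromosome 7 from 24546289 to 24573440 (Xrcc1, ENSMUSG00000051768) and chromosome 8 from 22628126 to 22653435 (Polb, ENSMUSG00000031536). Apex1, which encodes the endonuclease that opens the strand at abasic sites, was at 278, 368, 387 and 443 CPM in Prmt5 KO 1 to 4 and at 386, 468, 320.4 and 335 CPM in Control 1 to 4. The groups covered nearly the same range, with the lowest value in Prmt5 KO 1 and the highest in Control 2. The mean of Apex1 was 369 ± 68.5 CPM in Prmt5 KO and 377 ± 66.7 CPM in Control (SD, n = 4 each; log2 fold change -0.03 with a standard error of 0.17, edgeR's adjusted p = 0.982). The sign of this small value turned positive without Prmt5 KO 1 (0.08), without Control 2 (0.09), with Prmt5 KO 1 and 4 both left out (0.0020) and with Control 2 and 3 both left out (0.037). Exons of Pip4p1, on the opposite strand, cover 70.8% of the Apex1 transcript used, and no source used here gives the strand setting of the counting. Without the strand, reads of the pair cannot be told apart in the shared exons. Apex1 was at 82.1% to 116% of the Pip4p1 level in Prmt5 KO libraries and at 90.6% to 102% in Control libraries. Even the Apex1 transcript with the smallest overlap, Apex1-204 at 42.8%, gave 68.2 ± 22.2 CPM in Prmt5 KO and 73.0 ± 17.7 CPM in Control (SD, n = 4 each).

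Parp1, the poly(ADP-ribose) polymerase that binds strand breaks, had the most counts of the set. Its level was 622, 769, 585 and 873 CPM in Prmt5 KO 1 to 4 and 729, 761, 744 and 869 CPM in Control 1 to 4. The 4 Prmt5 KO libraries spread to both sides of the Control libraries. The mean of Parp1 was 712 ± 133 CPM in Prmt5 KO and 776 ± 63.2 CPM in Control (SD, n = 4 each; log2 fold change -0.12 with a standard error of 0.14, edgeR's adjusted p = 0.872). The log2 fold change of Parp1 lay between -0.24 and -0.04 on leaving out 1 library, with -0.04 without Prmt5 KO 3 and -0.24 without Prmt5 KO 4. Xrcc1, the scaffold that recruits ligase III and polymerase beta to a nick, was at 66.2, 120.3, 119 and 78.5 CPM in Prmt5 KO 1 to 4 and at 71.8, 120.1, 60.9 and 136 CPM in Control 1 to 4. Both groups were split, with Prmt5 KO 2 and 3 and Control 2 and 4 high and the others low. The mean of Xrcc1 was 95.9 ± 27.7 CPM in Prmt5 KO and 97.3 ± 36.6 CPM in Control (SD, n = 4 each; log2 fold change -0.02 with a standard error of 0.30, edgeR's adjusted p = 0.991). The sign of its log2 fold change was not stable and ran from -0.19 to 0.29 over 19 alternative fits, with 0.29 without Prmt5 KO 1 and 4.

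Polb, the polymerase that fills the single-base gap, was at 14.9, 43.0, 24.3 and 15.95 CPM in Prmt5 KO 1 to 4 and at 44.8, 13.8, 35.7 and 51.5 CPM in Control 1 to 4. Control 2 held the lowest value of all, and Prmt5 KO 2 lay close to Control 1. The mean of Polb was 24.5 ± 13.03 CPM in Prmt5 KO and 36.5 ± 16.4 CPM in Control (SD, n = 4 each; log2 fold change -0.58 with a standard error of 0.47, edgeR's adjusted p = 0.794). The log2 fold change was -0.84 without Control 2 (edgeR adjusted p = 0.756), -0.99 without Prmt5 KO 2 (edgeR adjusted p = 0.572) and -0.13 without Prmt5 KO 1 and 4 (edgeR adjusted p = 0.980). Between libraries of a group Polb varied more than most genes of the fit, with an SD of log2(CPM + 1) at the 59.9th percentile in Prmt5 KO and the 82.3rd in Control.

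Lig3 (ENSMUSG00000020697, GRCm38 chromosome 11, 82781108 to 82804274, plus strand) encodes the ligase that seals nicks with XRCC1 and also the DNA ligase of mitochondria. It was at 46.9, 68.8, 56.7 and 40.1 CPM in Prmt5 KO 1 to 4 and at 137, 101, 128 and 102 CPM in Control 1 to 4. Every Prmt5 KO library lay below every Control library, and the highest of them, Prmt5 KO 2, was at 68.8 CPM where the lowest Control library had 101 CPM. The mean in Prmt5 KO was 45.4% of that in Control. The log2 fold change was -1.14 with a standard error of 0.24, a 95% interval of -1.66 to -0.62, an unadjusted p of 0.000385 and an edgeR adjusted p of 0.202, rank 19 of 10990 by p, so it did not pass. DESeq2 called it (log2 fold change -1.14, adjusted p = 0.00207) among 107 genes (1.02% of 10482 with an adjusted p). In the other 18 alternative fits, left-out libraries included, the adjusted p was between 0.172 and 0.760 and the log2 fold change between -1.28 and -0.90. Without Prmt5 KO 1, the library with the raised somatic markers, it was -1.08. The set was chosen with earlier results of these libraries known, so the Lig3 value is no independent evidence.

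The Lig3 value rested on the transcript Lig3-201, with 20 exons and 5957 bases. Exons of Rffl, on the opposite strand, cover 1826 of these bases (30.7%) at the 3′ end, so reads there cannot be assigned to Lig3 or Rffl without the strand. Rffl itself was at 99.9 ± 30.6 CPM in Prmt5 KO and 110.3 ± 9.86 CPM in Control (SD, n = 4 each; log2 fold change -0.15, edgeR adjusted p = 0.941). Transcripts of Lig3 that lack this 3′ end could be read without Rffl. Lig3-212, which has 3636 bases and no overlap, was at 8.44, 45.2, 16.5 and 20.2 CPM in Prmt5 KO 1 to 4 and at 56.5, 39.7, 43.9 and 63.1 CPM in Control 1 to 4. Of the 4 Prmt5 KO libraries 3 lay below every Control library, and Prmt5 KO 2 lay among them. With this transcript as the value of Lig3 the log2 fold change was -1.18 with a standard error of 0.45 (unadjusted p = 0.0222, edgeR adjusted p = 0.534), a fit chosen after seeing the data. Lig3-201 minus Lig3-212, a difference that includes the 3′ end, was 38.5, 23.6, 40.2 and 19.9 CPM in Prmt5 KO 1 to 4. It was 80.3, 61.6, 84.5 and 38.5 CPM in Control 1 to 4. In this difference Control 4 reached down to the level of Prmt5 KO 1 and 3. The transcripts also differ at some exon ends, so the difference is not strictly the reads of Lig3-201 alone. Lig3-212 was at 17.99% to 65.6% of Lig3-201 in Prmt5 KO libraries and 34.2% to 62.1% in Control libraries. All 12 Lig3 transcripts with counts had a lower mean in Prmt5 KO, at 37.3% to 76.8% of the Control mean, and for 6 of them the groups did not overlap. Many of these transcripts share exons, so they were not counted as separate evidence.

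**Figure D2:**
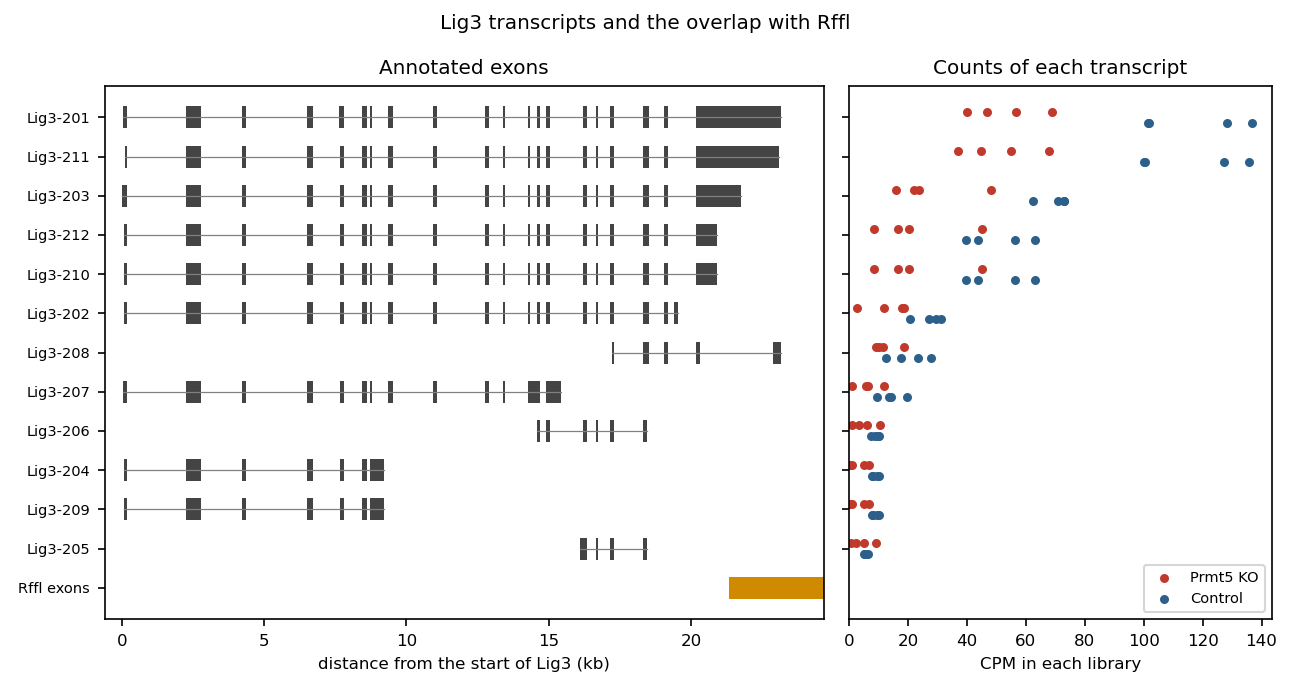
Exons of the 12 Lig3 transcripts and of Rffl (orange) by distance from the start of Lig3 in kilobases (left), and CPM of each transcript in each Prmt5 KO (red) and Control (blue) library (right). Rffl exons begin under the last exon of the long transcripts; in Lig3-212, which ends before them, the 4 Prmt5 KO libraries lie between 8.44 and 45.2 CPM and the 4 Control libraries between 39.7 and 63.1 CPM.

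The promoters of Lig3 and Parp1 are shown as the 250 bases before the RefSeq start, one for the gene with the lowest Prmt5 KO share of its Control level and one for the gene with the most counts. CpG dinucleotides, the sites of DNA methylation, are in capitals, and both windows are on GRCm38.p6 and the plus strand, chr11:82780859-82781108 for Lig3 and chr1:180568641-180568890 for Parp1.
Lig3: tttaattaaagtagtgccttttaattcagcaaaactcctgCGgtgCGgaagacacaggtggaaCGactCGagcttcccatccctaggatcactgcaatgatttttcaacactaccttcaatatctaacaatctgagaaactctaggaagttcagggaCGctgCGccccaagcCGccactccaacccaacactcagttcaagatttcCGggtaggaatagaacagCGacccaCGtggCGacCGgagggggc
Parp1: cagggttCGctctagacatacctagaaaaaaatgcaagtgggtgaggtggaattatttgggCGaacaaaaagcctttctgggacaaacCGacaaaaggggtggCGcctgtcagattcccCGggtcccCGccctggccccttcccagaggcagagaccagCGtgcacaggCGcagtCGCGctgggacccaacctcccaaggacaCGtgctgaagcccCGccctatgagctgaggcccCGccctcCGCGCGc
Lig3 held 12 CpG in this window and Parp1 16, where the median over 32851 RefSeq promoter windows of the same length was 6. Of the 9 genes 8 matched a promoter entry, and their windows held 5 CpG in Xrcc1 to 28 in Apex1. The Xrcc1 entry starts upstream of the transcript counted here. The letters CCAAT, searched on both strands, were found in 5 of the 8 windows and in 33.8% of all windows. The letters GGGCGG, searched on both strands, were found in 4 of the 8 and in 32.7% of all. The Lig3 window held neither, and the Parp1 window held GGGCGG 3 times and no CCAAT. No methylation was measured in these samples.

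The ligase pair was also read as ratios within a library. Lig3 was at 70.9%, 57.2%, 47.8% and 51.1% of the Xrcc1 level in Prmt5 KO 1 to 4 and at 190.3%, 84.4%, 211% and 74.6% in Control 1 to 4. The groups did not overlap but came close, at 70.9% in Prmt5 KO 1 and 74.6% in Control 4, and both Control libraries under 100% were those with a high Xrcc1. Against Lig1, the ligase of DNA replication and long-patch repair, Lig3 was at 4.84% to 11.8% in Prmt5 KO libraries and 14.2% to 20.2% in Control libraries. Lig1 itself was at 631 ± 133 CPM in Prmt5 KO and 674 ± 29.8 CPM in Control (SD, n = 4 each). Against Rffl, whose exons overlap its 3′ end, Lig3 was at 40.2%, 126.8%, 51.7% and 33.8% in Prmt5 KO 1 to 4. In Control libraries this ratio was 88.8% to 121.9%. The groups overlapped here, with Prmt5 KO 2 above every Control library. These ratios follow from the Lig3 values above and were not tested. The 3 genes whose libraries followed Lig3 most closely, by the root mean square difference of mean-centred log2 CPM over 8 libraries, were Nol10 (0.226), Znrf1 (0.253) and Hexdc (0.253). The median of all genes was 0.827, and these 3 lie below it by the way they were picked. This measure keeps the difference between the groups. Their log2 fold changes were -1.07, -0.76 and -1.26 (edgeR adjusted p = 0.473, 0.580 and 0.410).

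Levels of different genes were compared per kilobase of the transcript counted, which assumes even coverage along it. Whether coverage of Lig3 was even cannot be told. In Control, Lig3-212 with 3636 bases had a mean of 50.8 CPM. Lig3-201 minus Lig3-212, mostly the shorter remainder of the 5957 bases of Lig3-201, came to 66.2 CPM. Exons of Rffl cover 1826 bases of Lig3-201, all in that remainder, so an unknown part of this difference can belong to Rffl. The order of long and short transcripts is therefore uncertain. So is the place of Apex1, because exons of Pip4p1 cover 70.8% of its transcript and the strand setting is unknown. In Prmt5 KO cells the order was Apex1 (298 ± 55.3 CPM per kb), Ung (190 ± 30.9), Parp1 (184 ± 34.4), Xrcc1 (44.5 ± 12.8), Polb (20.4 ± 10.8), Lig3 (8.92 ± 2.09), Tdg (4.97 ± 2.15), Smug1 (3.92 ± 2.15) and Mbd4 (2.16 ± 1.15 CPM per kb; SD, n = 4 each). In Control cells it was Apex1 (305 ± 53.8 CPM per kb), Parp1 (200.3 ± 16.3), Ung (167 ± 9.04), Xrcc1 (45.1 ± 17.0), Polb (30.4 ± 13.7), Lig3 (19.6 ± 3.06), Tdg (6.00 ± 1.702), Smug1 (5.79 ± 2.89) and Mbd4 (3.18 ± 1.29 CPM per kb; SD, n = 4 each). Of neighbours in this order, the ranges of Tdg and Smug1 and of Smug1 and Mbd4 overlapped in both groups, as did those of Xrcc1 and Polb. Parp1 and Ung overlapped in Prmt5 KO and not in Control. Lig3 lay above Tdg without overlap in Control (17.0 to 23.0 CPM per kb against 4.23 to 7.84), whereas in Prmt5 KO the 2 ranges met (6.74 to 11.5 CPM per kb for Lig3 and 2.07 to 7.26 for Tdg). The glycosylases that can act on thymine or on oxidised cytosine, Tdg and Mbd4, were thus among the 3 lowest of the 9 in both groups, and Ung among the 3 highest.

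**Figure D3:**
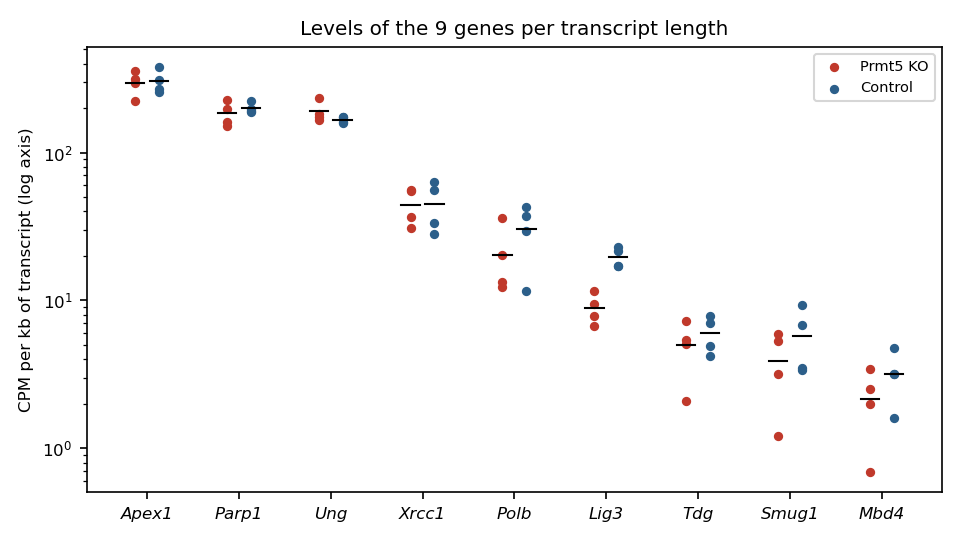
CPM per kilobase of transcript (vertical log axis) of the 9 genes in each Prmt5 KO (red) and Control (blue) library, with the group mean as a black bar and genes ordered by the Control mean. Apex1, Ung and Parp1 lie above 150 CPM per kb in every library, and Tdg, Smug1 and Mbd4 below 10 in every library. The Apex1 values can include reads of Pip4p1.

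The 95% intervals of the log2 fold changes state what these libraries could show. For 4 genes (Xrcc1, Parp1, Apex1 and Ung) the interval lay within a 2-fold difference in either direction, at most from -0.67 to 0.62 for Xrcc1. For Apex1 the interval bounds counts that can include reads of Pip4p1, so a larger change of Apex1 itself was not excluded. For 4 scarcer genes (Polb, Tdg, Mbd4 and Smug1) it held both 0 and a 2-fold fall, as from -1.91 to 0.79 for Mbd4, so a fall of that size was not excluded. Only the interval of Lig3 excluded 0.

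Further genes were listed with the pathway, among them replication genes and ubiquitin-related genes such as Usp7. Of these, 39 had a count and 35 were tested. In edgeR 0 rose, 0 fell and 35 did not pass, with 4 at an unadjusted p under 0.05 (11.4%, against 8.15% of all genes). DESeq2 called 0 of them. The 4 untested ones were the glycosylase genes Ogg1 and Neil2, Pold4 and Parp3, which were too scarce. Of the 35, 15 had a log2 fold change above 0 and 20 below, with a median of -0.06. The groups did not overlap for 5 of them, Mutyh, Rfc1 and Rfc5 lower in Prmt5 KO and Usp7 and Parp2 higher (14.3%, against 4.9% of all genes). Mutyh, which removes adenine paired with oxidised guanine, had the smallest p: it was at 4.22, 13.6, 14.3 and 12.2 CPM in Prmt5 KO 1 to 4 and at 27.7, 31.2, 26.3 and 37.6 CPM in Control 1 to 4. Its log2 fold change was -1.47 with a standard error of 0.46 (edgeR adjusted p = 0.410). Every Prmt5 KO library thus had less Mutyh than the lowest Control library. Rfc1, the large subunit of the clamp loader used in long-patch repair, was at 168 ± 22.8 CPM in Prmt5 KO and 245 ± 45.9 CPM in Control (SD, n = 4 each; log2 fold change -0.55, edgeR adjusted p = 0.429). Exons of Wsb2 cover 17.8% of the Rfc5 transcript on the opposite strand, so its value is uncertain.

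**Figure D4:**
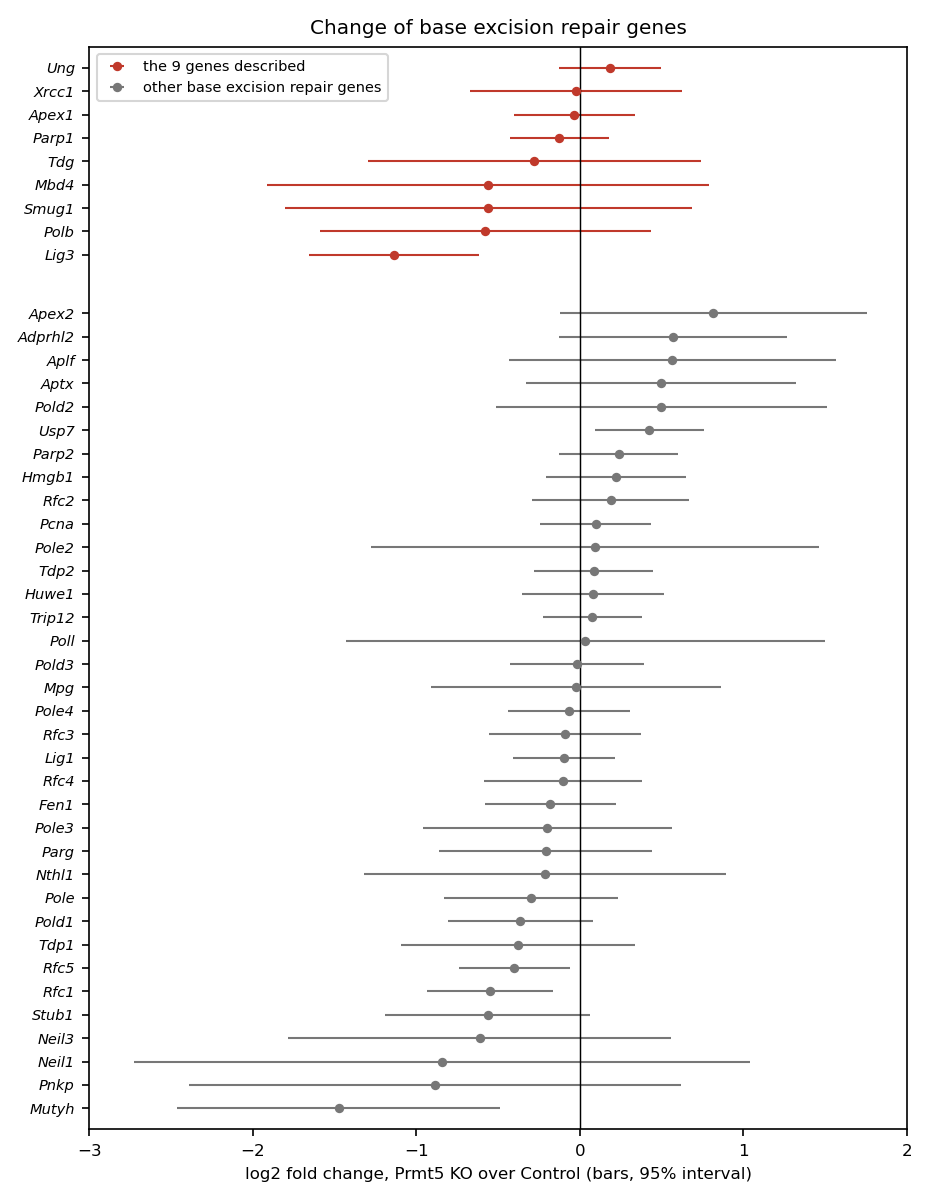
Log2 fold change, Prmt5 KO over Control (horizontal axis), with its 95% interval from edgeR, each group ordered by size. The 9 genes described are in red, and 35 further tested genes listed with base excision repair are in grey. Among the 9 genes only the interval of Lig3 lies wholly below 0, and none of the 44 genes passed an adjusted p of 0.05.

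Genes of DNA methylation and its removal, the process that some of these glycosylases can serve, were read from the same fit. Of 15 with a count 11 were tested, and 0 rose, 0 fell and 11 did not pass in edgeR or in DESeq2, with 0 at an unadjusted p under 0.05, 8 above 0, 3 below and a median log2 fold change of 0.20. Dnmt1, the maintenance methyltransferase, was at 318 ± 26.1 CPM in Prmt5 KO and 260 ± 43.7 CPM in Control (SD, n = 4 each; log2 fold change 0.29, edgeR adjusted p = 0.672), and Tet2, a cytosine-oxidising enzyme, was scarce at 6.61 ± 6.93 CPM in Prmt5 KO and 2.98 ± 1.30 CPM in Control (SD, n = 4 each; log2 fold change 1.15, edgeR adjusted p = 0.756). Prmt5 KO 4 carried the Tet2 mean, with 2.20, 3.29, 4.02 and 16.9 CPM in Prmt5 KO 1 to 4. Control libraries lay at 1.35 to 4.46 CPM.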

How the data were processed

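RNA was measured in 8 libraries of primordial germ cells sorted at embryonic day 11.5 (4 Prmt5 KO, 4 Control). Per the labels' protocols, RNA came from a PicoPure kit and each library from 50 pg of total RNA by a published single-cell method. The authors deposited whole-number read counts, 1 per transcript, and a transcript without any was not listed. The submitters' processing notes name GRCm38 and mm10; for the aligner, counter, annotation release and strand setting the answer is not given in the sources used.

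Of 66262 transcript identifiers 64258 (97%) matched GENCODE release M21 on GRCm38. Unmatched ones held 1.75% to 1.90% of each library's counts and were dropped. Of 6532 genes with at least 2 transcripts of 100 counts or more, 1132 had transcripts with identical counts, so summing could count a read more than once. Each gene was therefore read from the transcript with most counts in all libraries together. Genes passing filterByExpr (minimum count 10, minimum total 15) were scaled by TMM and compared in edgeR's quasi-likelihood test (robust), adjusted by Benjamini-Hochberg over 10990 genes at 0.05. The standard error was the log2 fold change divided by the square root of F, and 95% intervals used the degrees of freedom of that test. No library duplicated another by a chi-square comparison of counts. The gene test was tested on simulated data. DESeq2 and the other alternatives are given in the closing section. The members and gene lists were chosen with earlier results of these data known. Named genes were the 9 members, Prmt5, overlapping genes, up to 4 called or else the 2 with the smallest p of each further list, the 3 most like the member with the smallest p, and, per other cell type, its most abundant marker; Lig1, Rfc5, Usp7, Parp2, Acta2, Col3a1, Nr5a1, Tek, Egfl7 and the genes under the filter were named after their values were seen. RefSeq promoters are from GRCm38.p6. DESeq2 1.42.0, edgeR 4.0.16 and limma 3.58.1 ran in R 4.3.3, and figures were drawn with matplotlib 3.10.9.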

Additional observations from a re-analysis of the deposited data

Results flagged for a closer look

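A library standing well outside the other 3 of its group was looked for in 54 sets of 4 values. There were 2, and chance alone marks about 1 in 20 sets, here 2.7. Both were in Prmt5 KO 1. Its summed level of somatic gonad and mesonephros markers was 783 CPM, against 192 to 223 CPM in the other 3 Prmt5 KO libraries. Its share of counts on mitochondrial genes was 11.3%, against 9.01% to 9.29% in those 3. Control libraries lay at 9.74% to 11.45%, so Prmt5 KO 1 was within their range and the other 3 Prmt5 KO libraries were below every Control library. No value of the 9 genes set a library apart by this measure.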

How the results depend on the processing

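Over the 9 genes, 171 alternative values kept the direction and side of the threshold in 159, became stronger in 1 and reversed in 11; none of the reversed ones passed. The stronger one was Lig3 in DESeq2 (-1.14), which made 1 the count of the 9 genes called, where every other alternative gave 0. Xrcc1 reversed with no filter (0.0048), with the replicate block (0.0018), without Prmt5 KO 1 and 4 (0.29) and on leaving out 1 library (range -0.19 to 0.19). Apex1 reversed without Control 2 and 3 (0.037), without Prmt5 KO 1 and 4 (0.0020) and on leaving out 1 library (-0.13 to 0.092). The count over all genes was 7 with no filter, 107 in DESeq2, 1 in limma voom, 1 with the replicate block, 1 with summed transcripts, 0 without Control 2 and 3, where 713 genes had an unadjusted p under 0.05, 1 without Prmt5 KO 1 and 4 and 1 to 2 on leaving out 1 library. Prmt5 missed the threshold in limma voom (-1.76), with the replicate block (-1.92), with summed transcripts (-2.25), without Prmt5 KO 1 and 4 (-1.85) and with Control 2 and 3 left out (-1.54). On leaving out 1 library Prmt5 ranged from -2.11 to -1.82, and it passed only without Control 1 (-2.11). The cause of these changes was not tested. The numbers were not taken to pair the libraries: deviations of libraries with the same number correlated at 0.07, 0.04, -0.00033 and 0.06, and 3 of 4 Prmt5 KO libraries correlated best with their own number. With the block, Lig3 was at -1.16 and 0 of the 9 genes were called. Depth limits Tdg, Mbd4 and Smug1 most, at 27 to 156, 10 to 102 and 16 to 175 counts in a library.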

Other observations

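The shorter Mbd4 transcript Mbd4-202, with 2415 bases, was uneven between libraries of both groups. Its counts were 86.5%, 18.9%, 4.92% and 60.0% of those of Mbd4-201 in Prmt5 KO 1 to 4 and 118%, 69.2%, 23.8% and 92.3% in Control 1 to 4. In counts, Mbd4-202 had 64, 7, 3 and 6 in Prmt5 KO 1 to 4 and 120, 9, 5 and 60 in Control 1 to 4, so Prmt5 KO 1, Control 1 and Control 4 held most of them. How many reads the 2 transcripts share was not measured, and in Control 1 Mbd4-202 had 120 counts against 102 for Mbd4-201. The source of the uneven part was not tested.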
